A study of Ambystoma mexicanum and Ambystoma andersoni and Ambystoma maculatum with 18 samples.

Results

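Among the 474849 assembled features listed for Ambystoma maculatum, the spotted salamander, 163 were detected in limb tissue at amputation and undetected 24 h later. They were chosen by their counts: 0 in each of the 3 libraries at 24 h and at least 10 in each of the 3 libraries at 0 h. The 3 tables of the series list 2262193 features in all. The choice used the 24 h against 0 h contrast itself, so the values of the 163 features at these times are a description and carry no test.

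The series measured RNA in the distal 1 mm of cut forelimbs from larvae of 3 salamander species. The cut ran across the mid-zeugopod, the part of the limb between elbow and wrist. The groups are A. maculatum at 24 h and at 0 h, A. mexicanum (the axolotl) at 24 h and at 0 h, and A. andersoni at 24 h and at 0 h. Each group has 3 libraries, and each library is 1 pool of tissue from 5 larvae. All animals were amputated, so the 0 h groups are freshly cut tissue and not an uninjured limb left in place. No genotype, strain or age beyond larva is given in the sources used here. No source used here says whether pools of a group came from separate clutches or tanks, so p-values measure only the spread between these pools.

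A salamander limb stump is covered by migrating epidermis soon after a cut. Differentiated tissues under the wound, among them muscle, cartilage and connective tissue, are then remodelled, and a blastema of proliferating progenitor cells forms later. Tissue at the cut thus changes in its cell makeup as well as in the genes its cells use. In a mixed tissue such as this, fewer cells of a type and less RNA per cell cannot be told apart. The feature IDs carry no gene name and 0 of the 163 IDs were found in the table of axolotl RefSeq genes (assembly UKY_AmexF1_1). The features are therefore described by their IDs, and neither a function nor the labelled tissue could be checked against marker genes.

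The values are expected counts, estimates that divide reads matching several features among them. Library totals in A. maculatum were 8036916, 13018328 and 14703028 at 24 h, against 12199760, 14826163 and 14032684 at 0 h. The most abundant feature of the table took 44.4%, 64.5% and 51.9% of these counts at 24 h, against 23.7%, 20.7% and 24.9% at 0 h. Outside it, 4469810, 4627441 and 7078306 counts remained at 24 h, against 9303743, 11752207 and 10543935 at 0 h. The ratio of the summed counts outside it, 0 h over 24 h, was 1.95. Every 24 h library therefore sampled the other features less deeply than every 0 h library, and the first and second 24 h libraries least.

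The 163 features were of low to moderate level at 0 h. Their count had a median of 19, 25 and 23 in the first, the second and the third 0 h library and reached 191, 269 and 263. Summed over the 0 h libraries it ran from 33 to 627, with a median of 64 and quartiles of 46 and 108.5. Among all 24089 A. maculatum features with at least 10 counts in each 0 h library the median sum was 176, so the 163 features lay toward the low end. In CPM (counts relative to library size, with sizes adjusted by the TMM method), their mean 0 h level ran from 0.609 to 10.9 with a median of 1.19. Together they held 16390 counts at 0 h and 0 at 24 h. Their summed 0 h level was 299 ± 29.6 CPM (SD, n = 3), and the 10 highest features made up 28.3% of the summed counts.

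**Figure D1:**
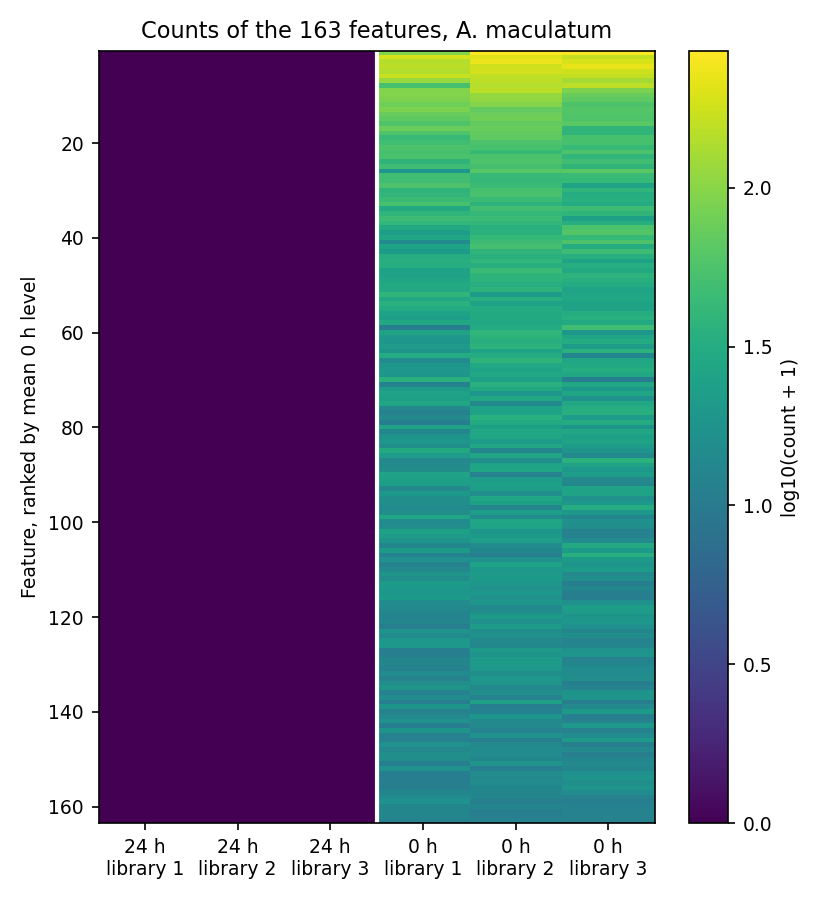
Counts of the 163 features (rows, highest mean 0 h level at the top) in the 3 libraries at 24 h, left, and the 3 at 0 h, right, as log10(count + 1). All 24 h cells are 0 by the choice of features, and the 0 h cells run from 10 to 269 counts.

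The feature with the highest level was Mac_TR48016_c0_g1. It had 0 counts in each 24 h library, against 95, 269 and 263 at 0 h (10.9 ± 3.98 CPM, SD, n = 3). The first 0 h library was the low one for this feature. A count of 0 nominally allows up to 3 counts over the 24 h libraries. On that floor its pooled level was at least 101-fold lower at 24 h. Such bounds divide the pooled 0 h level by that floor. They allow for counting error at 24 h alone, take the 0 h counts as exact, and count PCR copies of a molecule as separate reads. The features were chosen for their zeros, and neither these bounds nor those below allow for that choice.

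Mac_TR74517_c0_g1 had 0 counts in each 24 h library, against 144, 226 and 192 at 0 h, and was at least 90.6-fold lower. Mac_TR100088_c0_g4 had 0 counts in each 24 h library, against 191, 207 and 160 at 0 h, at least 89.9-fold lower. Mac_TR57236_c1_g3 had 0 counts in each 24 h library, against 150, 178 and 225 at 0 h, at least 89.1-fold lower. For these features the 3 pools at 0 h were of one order, and 0 h levels in CPM differed between the highest and the lowest pool by factors of 1.21, 1.63 and 1.23. Mac_TR67403_c0_g3, with 0 counts in each 24 h library, against 140, 182 and 176 at 0 h, was the most even of all 163, with a factor of 1.08.

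The other 5 of the 10 highest were Mac_TR56731_c1_g2 (0 counts at 24 h, against 169, 157 and 161 at 0 h), Mac_TR93515_c0_g1, Mac_TR59249_c1_g2, Mac_TR58359_c1_g1 and Mac_TR87727_c1_g1. Their bounds ran from 44.6-fold to 78.5-fold lower at 24 h. Mac_TR59249_c1_g2 was uneven at 0 h, with 52 counts in the first library against 143 and 155 in the other two, and its count at 24 h was 0 in each library. Over all 163 features the bound had a median of 10.3-fold, a lowest value of 5.32-fold and quartiles of 7.41-fold and 17.5-fold. It was under 10-fold for 78 features and at least 10-fold for 85.

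Evenness among the 0 h pools was not part of the rule. The highest 0 h pool exceeded the lowest by a median factor of 1.69 in CPM among the 163 features. Among the 19185 other features with at least 10 counts in each 0 h library and a mean CPM in the same range the median factor was 1.49. A factor of 2 or more was reached by 47 of the 163, or 28.8%, against 18.1% of the others. The others were not matched on level within that range, and these shares were not tested. The most uneven features were Mac_TR38018_c0_g1, with 34, 23 and 10 counts at 0 h (a factor of 4.63 in CPM), Mac_TR73756_c0_g1, with 10, 30 and 47, and Mac_TR87133_c1_g8, with 30, 30 and 12. All had 0 counts in each 24 h library. The most even after Mac_TR67403_c0_g3 were Mac_TR96061_c0_g1 and Mac_TR89214_c0_g1, with factors of 1.10 and 1.12. By CPM the first 0 h library held the highest value for 83 features, the second for 46 and the third for 34. A count of 10 stood for 0.667 CPM in the first 0 h library, against 0.503 in the second and 0.490 in the third. The minimum of 10 thus asks for a higher level in the first. The numbers of highest values per library were not taken over all features with at least 10 counts in each 0 h library.

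The depth at 24 h sets what a count of 0 can show. For each feature the count that its mean 0 h level would give in each 24 h library was calculated. Scaled to the counts outside the most abundant feature, this count had a median of 9.16 in the first 24 h library, 9.48 in the second and 14.5 in the third. The lowest value of any of the 163 features in any 24 h library was 4.71, and summed over the 24 h libraries it was 17.0 counts or more. On the TMM scale the smallest 24 h library would hold a median of 7.09 counts and at the lowest 3.63. The observed count was 0 in each case by the choice of features. The same rule set a minimum for the 0 h counts behind the calculated values. The calculation does not allow for that choice, so the gap to 0 is a description. Low features had less room above 0 than high ones: Mac_TR58513_c1_g1, with 12, 10 and 11 counts at 0 h, would have had 17.2 counts over the 24 h libraries on the first scale, against 313 for Mac_TR48016_c0_g1. The calculated counts are scaled to the size of each 24 h library. How far fewer counts outside the most abundant feature contribute to the zeros was not tested.

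**Figure D2:**
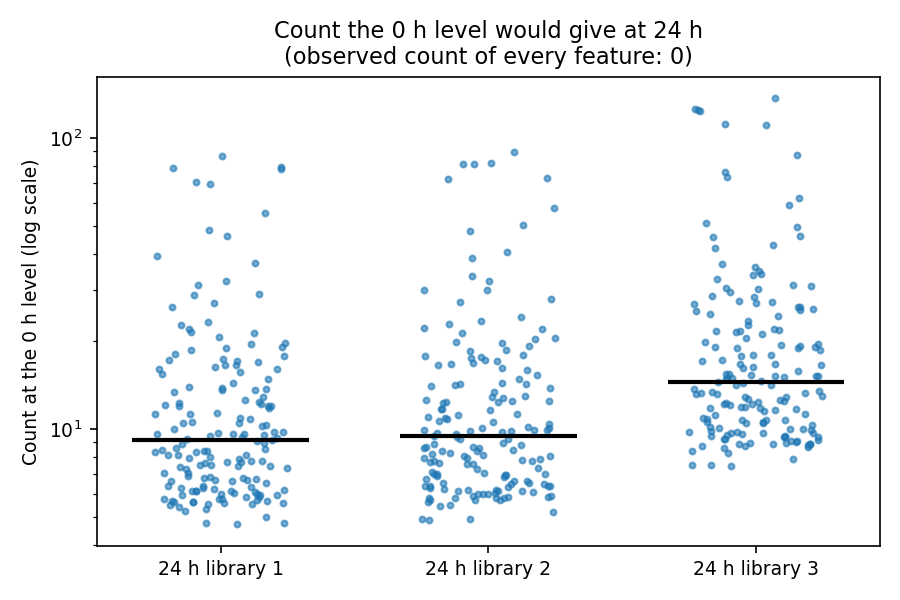
The count each of the 163 features (points) would have in each 24 h library at its mean 0 h level, scaled to counts outside the most abundant feature, on a log axis, with the median as a bar. The observed count of every point is 0 by the choice of features, and the lowest calculated count is 4.71.

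When the 0 h counts were first scaled down to the smallest 24 h library outside the most abundant feature, 52 features met the same rule. With the times exchanged, 8 A. maculatum features had 0 counts in each 0 h library and at least 10 in each 24 h library, of 14454 features with at least 10 in each 24 h library. At unequal depth 163 of 24089 features, or 0.677%, were undetected at 24 h, and 8 of 14454, or 0.0553%, were undetected at 0 h. The exchanged rule asks for 0 counts in the deeper libraries, so the comparison is not one of equal depth.

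The set was bounded closely on both sides. The smallest 0 h count was exactly 10 in 27 of the 163 features, the lowest by level being Mac_TR58513_c1_g1 and Mac_TR148068_c0_g1, with the same 0 h counts, and Mac_TR175582_c0_g1 (16, 10 and 10). Another 25 features with 0 counts at 24 h fell short with a smallest 0 h count of 9, among them Mac_TR50991_c8_g11 (27, 24 and 9 at 0 h), Mac_TR151834_c0_g2 (9, 30 and 24) and Mac_TR81321_c0_g1 (19, 26 and 9). A further 126 features had at least 10 counts in each 0 h library and 1 count in all at 24 h. That single count lay in the third 24 h library for 98 of them, in the second for 17 and in the first for 11.

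Some of these excluded features stood within or above the 0 h range of the 10 highest of the 163, at 5.13 to 10.9 CPM. Mac_TR57744_c0_g1 had 0, 0 and 1 counts at 24 h, against 292, 389 and 220 at 0 h, a mean of 16.6 CPM at 0 h. Mac_TR104064_c1_g1 had 0, 0 and 1 counts at 24 h, against 163, 141 and 172 at 0 h. Mac_TR104064_c1_g2, of the same component, had 0, 0 and 1 counts at 24 h, against 153, 142 and 121 at 0 h. Mac_TR81911_c0_g4 (0, 0 and 1 counts at 24 h, against 135, 172 and 123 at 0 h) and Mac_TR192081_c0_g1 (0, 1 and 0, against 155, 173 and 89) were of the same kind. A single count in 1 library thus separates them from the 163.

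The third 24 h library limited the set most. Of the 24089 features with at least 10 counts in each 0 h library, 1793 were at 0 in the first 24 h library, 1183 in the second and 230 in the third. In 514 features the first and second 24 h libraries were at 0 and the third was not. The first and the third alone were at 0 in 35 features, and the second and the third alone in 15. Without the third 24 h library the rule took 677 features, and without the first or the second it took 178 or 198. Without the first 0 h library it took 246. The third 24 h library was also the deepest outside the most abundant feature.

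Leaving a library out of the choice allows the features to be read in a library that did not choose them. Features at 0 in the second and the third 24 h library and with at least 10 counts in each 0 h library were at 0 in the first in 163 of 178 cases, or 91.6%. With the second library left out 163 of 198, or 82.3%, were at 0 in it. With the third left out 163 of 677, or 24.1%, were at 0 in it. Of all 24089 features with at least 10 counts in each 0 h library, 7.44%, 4.91% and 0.955% were at 0 in the first, the second and the third 24 h library. Weighted to the chosen features' spread over bins of summed 0 h count from under 60 to 1000 or more, these shares were 12.8%, 9.93% and 1.79%.

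The same reading gives a level. The 677 features chosen without the third 24 h library summed to 2923 counts in it, or 210 CPM, against a mean of 1368 CPM in the 0 h libraries, a ratio, 0 h over 24 h, of 6.52. The 198 features chosen without the second library summed to 26.2 CPM in it, against 366 CPM at 0 h, a ratio of 14.0. The 178 chosen without the first summed to 28 counts in it, or 4.09 CPM, against 327 CPM at 0 h, a ratio of 80.0. The 0 h libraries behind these ratios took part in the choice, which set a minimum for their counts. When 1 0 h library was left out of the choice as well and read in place of the mean, the 9 combinations gave ratios of 4.69 to 57.1, and each was lower at 24 h. The lowest, 4.69 to 5.98, were those with the third 24 h library left out, where most features chosen by the zeros of the other two had counts. These are values of single libraries, and no test was made of them.

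**Figure D3:**
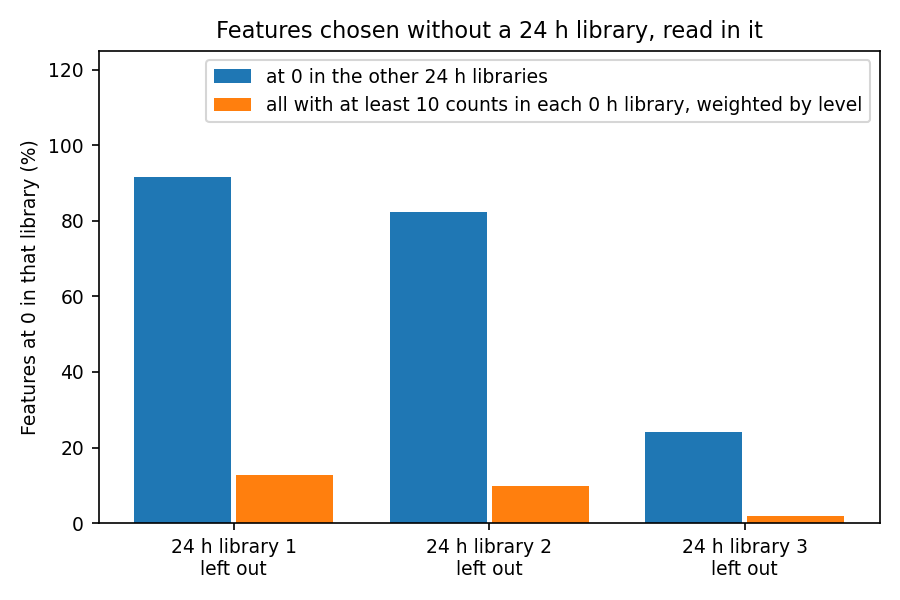
Share of features at 0 in a 24 h library that was left out of the choice, for features at 0 in the other two 24 h libraries (left bars) and for all 24089 features with at least 10 counts in each 0 h library, weighted to the same spread over bins of summed 0 h count (right bars). The shares are 91.6%, 82.3% and 24.1%, against 12.8%, 9.93% and 1.79%.

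The edgeR quasi-likelihood fit of all A. maculatum features tested 27360, of which 6012, or 22%, passed an adjusted p of 0.05 and 3221, or 11.8%, were lower at 24 h. Of the 163 features 147 passed the filter on low counts and all 147 were called lower, which the choice of features brings about. The 16 left out of the test had a count of 10 in the second or the third 0 h library, with sums of 33 to 67 over the 0 h libraries. The highest of them was Mac_TR38018_c0_g1.

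The feature IDs have parts, and features that share all but the last part are called a component here. The assembler is not given in the sources used here, so it is not stated what features of 1 component share. The 163 features came from 155 components, 8 of which held 2 of them and none more. The component Mac_TR100088_c0 held Mac_TR100088_c0_g4 and Mac_TR100088_c0_g2 (0 counts in each 24 h library, against 52, 43 and 55 at 0 h). Mac_TR57236_c1 held Mac_TR57236_c1_g3 and Mac_TR57236_c1_g2 (0 counts in each 24 h library, against 18, 28 and 27 at 0 h). Mac_TR53037_c1 held Mac_TR53037_c1_g3 (0 counts in each 24 h library, against 47, 42 and 44 at 0 h) and Mac_TR53037_c1_g1 (0 counts, against 14, 12 and 11).

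In 83 cases the feature was alone in its component, while 80 features, or 49.1%, had company, against 58.7% of all features with at least 10 counts in each 0 h library. These components held 151 other features, and 64 of them passed the filter on low counts. Of the 64, 58 were called lower at 24 h by edgeR, 0 were called higher and 6 were not called, so 90.6% were lower, against the 11.8% of all tested features. In all 58 the highest 24 h library was below the lowest 0 h library in CPM, which held for 22.6% of all tested features. Their count called lower was 53 to 61 when any 1 library was left out. The share applies to partners that passed the filter, which their 0 h counts can bring about. With no filter on low counts 140 partners were tested, of which 61, or 43.6%, were called lower by edgeR, against 1.07% of all features in that fit. The fit held 352216 features, against 27360 with the filter, and these shares were not matched on level. In the same fit 2 partners were called higher. Mac_TR60725_c1_g1 had 11, 3 and 9 counts at 24 h, against 0, 0 and 0 at 0 h. Mac_TR87133_c1_g3 had 0, 76 and 0 counts at 24 h, against 25, 17 and 10 at 0 h, so its higher mean rests on 1 library. The contrast is the one that chose the 163 features, and expected counts can pass between similar features, so these other features are not independent evidence.

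Among the 64 partners that passed the filter, which their 0 h counts can bring about, the fall was large. The median log2 fold change of the 64 (24 h over 0 h) was -3.87, and -3.75 with the 16 partners at 1 to 3 counts at 24 h set to the floor of 3 counts, against -0.01 for all tested features. A called log2 fold change of -3 or less was found in 53 of them, or 52 with the floor, a share of 82.8% without the floor, against 4.44% of all tested features. None of the 64 was at 0 in each 24 h library, and 10 were at 0 in the first and second alone. By CPM the third 24 h library was the highest of the 24 h libraries in 42.2% of them, against 50.7% of all features called lower and 36.3% of all tested features. The 87 untested partners had at most 46 counts over the 0 h libraries, and 17 had none there. Of these 87, 11 had 0 counts in each of the 6 libraries and 39 others were at 0 in each 24 h library. The mean CPM was higher at 24 h in 20 of the 87 and lower in 56.

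**Figure D4:**
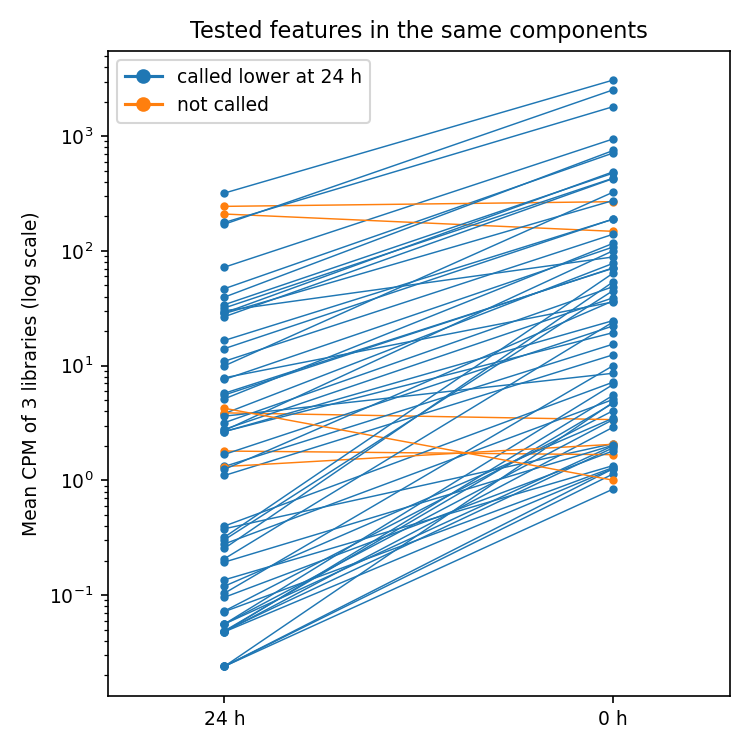
Mean CPM (log axis) at 24 h, left, and at 0 h, right, of the 64 tested features that share a component with any of the 163 (a line each). The 58 called lower at 24 h by edgeR slope up to the right, and the 6 not called are drawn in orange.

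Among the partners of the 10 highest features, 5 were tested, and all 5 were called lower at 24 h by edgeR, against 11.8% of all tested features. Their 0 h counts can bring about passing the filter, which favours partners lower at 24 h. They were also reached through features chosen on this same contrast. The calls and p-values of these 5 partners are therefore a description and not independent evidence. Mac_TR93515_c0_g2, of the component of Mac_TR93515_c0_g1, had 1, 1 and 9 counts at 24 h, against 1194, 1319 and 942 at 0 h. Its level was 0.320 ± 0.283 CPM at 24 h, against 64.0 ± 16.9 CPM at 0 h (SD, n = 3). The log2 fold change was -7.33 (SE 0.46) with an edgeR adjusted p of 3.04e-05. Mac_TR67403_c0_g2, the partner of Mac_TR67403_c0_g3, had 0, 2 and 4 counts at 24 h, against 398, 503 and 414 at 0 h, and a log2 fold change of -6.70 (SE 0.44) with an edgeR adjusted p of 3.62e-05. The groups of libraries did not overlap for either partner. Every 24 h library was below every 0 h library in CPM for 22.6% of all tested features. Untested partners of the 10 highest features ran both ways. Mac_TR67403_c0_g1 had 1, 0 and 12 counts at 24 h, against 0, 0 and 0 at 0 h, and Mac_TR57236_c1_g1 had 3, 2 and 2, against 0, 1 and 1. Mac_TR56731_c1_g1 had 0, 0 and 0 counts at 24 h, against 5, 3 and 6 at 0 h.

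In the component Mac_TR100088_c0 all 4 features were at or near 0 at 24 h. Mac_TR100088_c0_g4 and Mac_TR100088_c0_g2 were at 0 there by the choice of features. The 0 h expected counts of Mac_TR100088_c0_g4 and Mac_TR100088_c0_g3 were not all whole numbers. Mac_TR100088_c0_g3 had 1, 0 and 1 counts at 24 h, against 81, 72 and 64 at 0 h, a pooled ratio, 0 h over 24 h, of 52.5 (95% counting interval 14.3 to 436). Such intervals cover counting error alone and leave out the spread between pools. Mac_TR100088_c0_g1 had 0, 1 and 0 counts at 24 h, against 30, 43 and 38 at 0 h, a pooled ratio of 53.7 (9.43 to 2138). In Mac_TR53037_c1 the third feature, Mac_TR53037_c1_g2, had 0, 0 and 2 counts at 24 h, against 106, 97 and 94 at 0 h, a pooled ratio of 71.8 (19.7 to 596). The partner of Mac_TR59249_c1_g2 fell less: Mac_TR59249_c1_g1 had 5, 15 and 66 counts at 24 h, against 241, 560 and 611 at 0 h, and its log2 fold change was -3.12 (SE 0.50) at an edgeR adjusted p of 0.00214.

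A number of the 163 features were minor members of components with an abundant partner. For 39 features in 35 components a tested partner existed. The most abundant one, meaning the one with the highest mean 0 h CPM, was above the feature at 0 h in 37 cases. It was above by 10 times or more in 24. Of the 35 most abundant partners 33 were called lower at 24 h by edgeR, 0 higher, and 2 were not called, where 11.8% of all tested features were lower. Passing the filter and being picked by 0 h level both favour partners lower at 24 h, so these numbers are a description. The following examples were chosen after their values were seen. Mac_TR60054_c1_g4 had 0 counts in each 24 h library, against 13, 19 and 20 at 0 h. Its partner Mac_TR60054_c1_g2 had 195, 1296 and 3723 counts at 24 h, against 36478, 57261 and 46988 at 0 h, and its log2 fold change was -3.89 (SE 0.70) at an edgeR adjusted p of 0.00398. The feature's 0 h level was 0.0368% of that of its partner.

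Mac_TR87133_c1 was the largest of these components, with 13 features. Its member of the 163, Mac_TR87133_c1_g8, had 0.0442% of the 0 h level of Mac_TR87133_c1_g2. That partner averaged 320 ± 165 CPM at 24 h, against 3089 ± 740 CPM at 0 h (SD, n = 3). Its log2 fold change was -3.27 (SE 0.47) at an edgeR adjusted p of 0.00135. It stayed well detected in each 24 h library, with 985, 2803 and 4801 counts.

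The partner's fold gives a second calculated count. If a feature had stood at its own 0 h level times its most abundant partner's ratio in each 24 h library, the count over the 24 h libraries would have been under 3 for 22 of the 39 features and 3 or more for 17, with a median of 2.69. At an unchanged level the same features would have had 18.5 to 276 counts, as in Mac_TR53037_c1_g1 and Mac_TR100088_c0_g4. For Mac_TR60054_c1_g4 the count was 1.92 at its partner's ratio, and 25.0 at an unchanged level. For Mac_TR93515_c0_g1 it was 1.23 at its partner's ratio, against 191 at an unchanged level. Where the calculated count is under 3, a total loss and a fall of the partner's size are not distinguishable at this depth. Where it is 3 or more, a difference from the partner was not tested. The calculation leaves out the errors of the partner's ratio and of the 0 h level. It also does not allow for the choice of features by their zeros.

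For 3 features the count calculated from the partner's ratio was well above 3, and they were picked for that. Mac_TR34943_c0_g2 had 0 counts in each 24 h library, against 13, 13 and 22 at 0 h, and would have had 27.6 counts at 24 h at its partner's ratio. That partner, Mac_TR34943_c0_g1, had 29, 18 and 61 counts at 24 h, against 49, 66 and 73 at 0 h, and its log2 fold change was 0.21 (SE 0.28) at an edgeR adjusted p of 0.657. Mac_TR48005_c0_g4 had 0 counts in each 24 h library, against 11, 15 and 17 at 0 h, and would have had 18.5. Its partner Mac_TR48005_c0_g5 had 1831, 1426 and 3167 counts at 24 h, against 4689, 5609 and 4323 at 0 h, and its log2 fold change was -0.14 (SE 0.25) at an edgeR adjusted p of 0.754. Of the other tested partners there, Mac_TR48005_c0_g11 was called lower, with a log2 fold change of -2.54 (SE 0.59) at an edgeR adjusted p of 0.0135. Mac_TR48005_c0_g1 and Mac_TR48005_c0_g10 were not called. The expected counts of Mac_TR48005_c0_g4 at 0 h were not all whole numbers. For Mac_TR59249_c1_g2, whose partner did fall, the count at the partner's ratio was 21.2. These are the 3 highest of the 39.

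Expected counts that are not whole numbers mark reads divided among features. Of the 163 features 120, or 73.6%, had whole expected counts, to the 2 decimals deposited, in all 0 h libraries, against 80.3% of all features with at least 10 in each. The other 43, Mac_TR100088_c0_g4 and Mac_TR59249_c1_g2 among them, shared reads with other features and are uncertain to that extent. At 24 h 0 of the 163 had a fractional value hidden by rounding. A single feature of the 163 had an unrounded 0 h value just under 10.

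The rule was also applied to the tables of the other species, whose features are not matched to those of A. maculatum. It took 163 of 24089 features with at least 10 counts in each 0 h library in A. maculatum, against 5 of 28170 (0.0177%) in A. mexicanum and 46 of 27599 (0.167%) in A. andersoni. The share was highest among features with the fewest counts in A. maculatum: 2.19% of those with a summed 0 h count from 30 to 59, 1.06% from 60 to 99, 0.539% from 100 to 199, 0.217% from 200 to 299 and 0.164% from 300 to 999. From 1000 counts up it was 0 of 2907 features. In A. mexicanum the same bins held 3, 0, 1, 1 and 0 features (0.115%, 0%, 0.0198%, 0.0339% and 0%). In A. andersoni they held 14, 20, 6, 4 and 2 (0.437%, 0.440%, 0.107%, 0.137% and 0.0285%).

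Depth outside the most abundant feature also differed among the species. It was 4469810 to 7078306 counts per 24 h library in A. maculatum, 13854912 to 19618442 in A. mexicanum and 7987909 to 10847147 in A. andersoni. Each species is a single table, so the difference in these shares was not tested, and its relation to depth was not tested. With the times exchanged, the shares were taken over features with at least 10 counts in each 24 h library. They were 8 of 14454 (0.0553%) in A. maculatum, 75 of 33171 (0.226%) in A. mexicanum and 20 of 27068 (0.0739%) in A. andersoni.

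**Figure D5:**
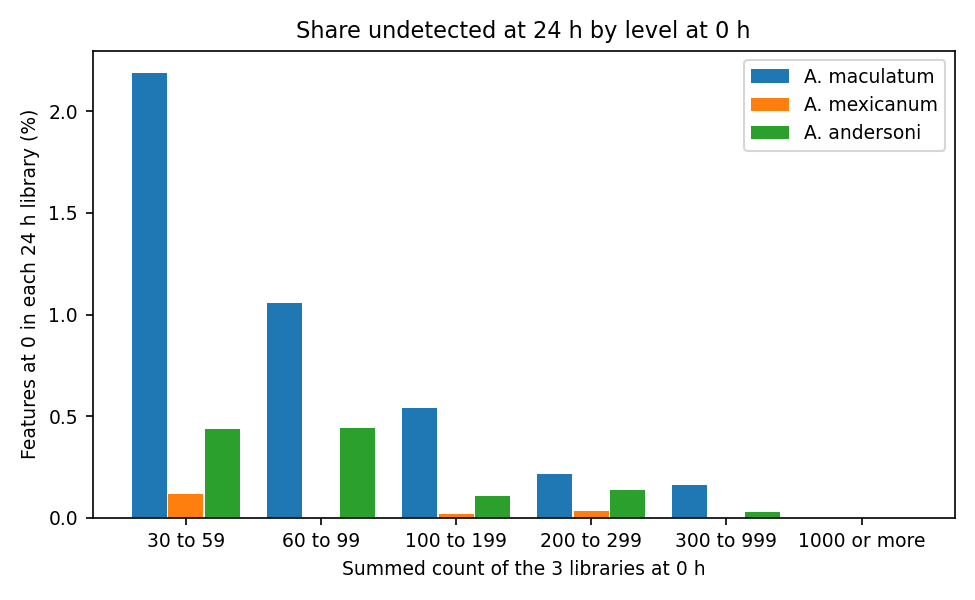
Share of features at 0 in each 24 h library, among those with at least 10 counts in each 0 h library, by summed 0 h count and species. The A. maculatum bars fall from 2.19% in the lowest bin to 0 in the highest, and those of the other species stay at 0.440% or less.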

How the data were processed

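The authors deposited a table of expected counts for each species, with 1 row per assembled feature. RSEM made them, per the labels. Its version, the aligner and the assembler are not given, and 0 columns were left unused. Expected counts were rounded. The 163 features and all rules were chosen with earlier results of these data known.

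A. maculatum libraries, 3 at 24 h and 3 at 0 h, were compared by edgeR 4.0.16 (quasi-likelihood test, R 4.3.3). Sizes were TMM-adjusted, the design held time alone, and filterByExpr removed low features (minimum count 10, minimum total 15). P-values were adjusted by Benjamini-Hochberg over all tested features, at a threshold of 0.05. Each SE is the absolute log2 fold change over the square root of the test's F statistic, and was not estimated by the fit itself. DESeq2 1.42.0, other scalings and leaving out each library were alternatives. Library totals ranged from 8036916 to 14826163 counts. Floors are 3 counts over a group and intervals are 95%.

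Named features are the 10 with the highest 0 h CPM, the 3 most even and 3 most uneven, the 3 components with most members, those just inside and outside the thresholds, and tested partners of the 10. Others were named outside these rules, among them Mac_TR53037_c1_g2 and untested partners. Some of the others are said to be chosen afterwards. No gene lists were used, since no feature has a gene name. No sequences of these features were used here.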

Additional observations from a re-analysis of the deposited data

How the results depend on the processing

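The number of features undetected at 24 h depends on the thresholds. It was 163, and became 436 with a minimum of 5 counts in each 0 h library, 57 with a minimum of 20, 317 with at most 1 count in each 24 h library, and 52 with 0 h counts scaled to the smallest 24 h library outside the most abundant feature. With unrounded values it was 162. Leaving out 1 library gave 178 to 677, the highest without the third 24 h library and 246 without the first 0 h library. Features called by edgeR numbered 3486 (without the second 0 h library) to 7405 when 1 library was left out, and 5977 to 7163 under the other alternatives. Over all tested features the middle log2 fold change was -0.86 with library totals alone and -0.01 with TMM. Of the 163 features 99 to 163 were tested under the alternatives. Every tested one was called lower except without the second 0 h library, where 144 of 153 were. The choice of features brings these calls about. In the main fit 11.8% of all tested features were called lower. The 58 lower calls among 64 tested component partners became 53 to 61 under alternatives added after seeing the data. With no filter they were 61 of 140, with 2 called higher. The median count calculated for the smallest 24 h library was 7.09, and 12.7 with library totals and 9.16 with counts outside the most abundant feature. The share at 0 in the third 24 h library when left out was 24.1%, and 20.5% with a minimum of 20 counts. Where no cause follows from the construction of an alternative, the cause was not tested. No paired analysis was possible because the labels carry no replicate numbers. Those used here are names in accession order and pair no pools. Depth at 24 h limits the bounds to 5.32-fold for the lowest feature.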
